A study of Homo sapiens with 24 samples.

Results

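The heat shock response genes described here are 10 genes, namely the regulator HSF1, the HSP70 chaperones HSPA1A, HSPA1B, HSPA8 and HSPA5, the HSP110 chaperone HSPH1, the HSP90 chaperones HSP90AA1 and HSP90AB1, the J-domain cochaperone DNAJB1 and the mitochondrial chaperonin HSPD1. A called region was assigned to a gene when it lay within 5 kb of an annotated transcription start site (TSS) of that gene or overlapped the gene itself. This gave 15 of the 26369 distinct regions in the 8 lists analysed, of which 14 had increased and 1 had decreased accessibility. The lists come from ATAC-seq, in which a transposase cuts DNA where chromatin is open, of OCI-LY3 and VAL, established human lines of diffuse large B-cell lymphoma (DLBCL). Cells were exposed to AZD4573, an inhibitor of the transcription kinase CDK9, at 30 nM for 0, 3 or 8 h, and the labels name no genetic change in either line. Each of the 6 groups had 4 libraries, 2 made from 50000 cells by the standard method and 2 made from 5000 cells by the Fast-ATAC method according to the labels. For each line and time the authors compared treated cells with the 0 h cells of that line, which the lists call DMSO, and deposited one list of regions with increased accessibility and one with decreased accessibility. The same untreated libraries of a line serve as reference at 3 h and at 8 h, so its comparisons are not independent. Regions were listed when the absolute fold change in DESeq2 was over 1.5 and the adjusted p-value passed a threshold on which the study's methods and a legend differ. The lists hold coordinates alone, so the size of a change beyond that minimum, its error and the depth behind it are unknown, no test could be run, and a gene without a listed region may have an open promoter that did not pass the authors' threshold or was not in the lists for another reason.

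Heat shock proteins are chaperones that help other proteins fold and keep damaged ones from clumping. When unfolded proteins accumulate, HSF1 is released from its chaperone partners, forms trimers and binds heat shock elements, which are inverted repeats of a short GAA unit, at the promoters of chaperone genes. Heat shock genes are a textbook case of promoter-proximal pausing, in which RNA polymerase waits just past the TSS until P-TEFb, the complex that contains CDK9, releases it. Some of these genes are transcribed only weakly until stress occurs, and others serve protein folding in every growing cell.

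The reference sequence before the TSS is shown for members whose promoter holds such an element, because regions with a gain of accessibility covered these stretches in some of the genes while no region was listed there in others. The searched element was GAANNTTCNNGAA or TTCNNGAANNTTC (3 units), or GAANNTTC or TTCNNGAA (2 units, which lie inside every 3-unit element). The 3-unit patterns are each other's reverse complement and each 2-unit pattern is its own, so both strands were searched. Capitals mark the 3-unit element where there is one and otherwise the 2-unit element. Positions are counted from -1, the base just before the canonical TSS. Stretches that are exons of other transcripts of the same gene were left out or cut to at most 30 bases. The sequences are from GRCh37 (hg19), read 5′ to 3′ on the strand of the gene. The HSPA1A stretch is chr6:31783070-31783319 (plus strand), the HSPA1B stretch chr6:31795265-31795514 (plus), the HSPA8 stretches chr11:122933053-122933082 and chr11:122932878-122932907 (minus), the HSPH1 stretch chr13:31736065-31736118 (minus), the HSP90AA1 stretch chr14:102553382-102553631 (minus), the DNAJB1 stretch chr19:14629220-14629459 (minus) and the HSPD1 stretch chr2:198364786-198364814 (minus). The HSP90AB1 stretch, chr6:44215495-44215600 (plus), lies after the TSS, in the first intron, and is shown because the increased region of that gene holds both elements.
HSPA1A, -250 to -1: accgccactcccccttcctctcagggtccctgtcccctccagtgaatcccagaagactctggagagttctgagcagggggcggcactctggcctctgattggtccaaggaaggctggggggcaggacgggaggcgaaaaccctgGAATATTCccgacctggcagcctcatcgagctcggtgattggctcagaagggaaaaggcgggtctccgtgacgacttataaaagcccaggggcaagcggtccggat
HSPA1B, -250 to -1: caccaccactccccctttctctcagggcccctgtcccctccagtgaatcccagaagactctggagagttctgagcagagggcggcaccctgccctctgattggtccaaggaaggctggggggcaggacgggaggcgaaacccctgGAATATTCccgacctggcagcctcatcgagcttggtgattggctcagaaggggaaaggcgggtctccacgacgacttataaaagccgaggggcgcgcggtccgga
HSPA8, -238 to -209: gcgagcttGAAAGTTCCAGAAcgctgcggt
HSPA8, -63 to -34: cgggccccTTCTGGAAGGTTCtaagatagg
HSPH1, -77 to -24: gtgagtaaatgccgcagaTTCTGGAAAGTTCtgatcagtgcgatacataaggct
HSP90AA1, -250 to -1: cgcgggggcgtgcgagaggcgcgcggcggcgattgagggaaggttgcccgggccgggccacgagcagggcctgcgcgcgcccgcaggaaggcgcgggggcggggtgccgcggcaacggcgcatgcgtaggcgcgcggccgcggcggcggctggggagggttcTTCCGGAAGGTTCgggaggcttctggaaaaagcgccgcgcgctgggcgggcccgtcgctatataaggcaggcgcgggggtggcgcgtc
DNAJB1, -250 to -11: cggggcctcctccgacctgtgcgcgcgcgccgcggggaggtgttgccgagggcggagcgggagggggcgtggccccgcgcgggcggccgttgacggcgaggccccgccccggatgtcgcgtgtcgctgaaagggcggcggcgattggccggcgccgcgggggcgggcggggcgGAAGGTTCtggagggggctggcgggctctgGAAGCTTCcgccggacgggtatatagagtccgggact
HSPD1, -250 to -222: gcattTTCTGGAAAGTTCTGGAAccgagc
HSP90AB1, +658 to +763: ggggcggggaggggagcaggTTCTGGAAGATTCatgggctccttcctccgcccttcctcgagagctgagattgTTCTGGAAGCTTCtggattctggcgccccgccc

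A 3-unit element lay within 250 bases before the TSS in 4 of the 10 genes, against 64 of 19862 promoters of protein-coding genes (0.322%). These 4 were HSPA8, with one at -230 to -218 and one at -55 to -43, HSPD1, with 2 that overlap each other between -245 and -228, HSPH1 at -59 to -47 and HSP90AA1 at -88 to -76. A 2-unit element lay in 7 of the 10, the other 3 of these being HSPA1A, HSPA1B and DNAJB1, against 9.43% of all promoters. HSF1, HSPA5 and HSP90AB1 had neither within that window. The CCAAT box (searched as CCAAT on both strands) occurred in 7 members and in 34.3% of promoters, with 4 copies in HSPA5. The TATA box (TATAAA on both strands) occurred only in HSPA1A at -30 and HSPA1B at -29, against 9.26% of promoters. The CCAAT and TATA searches were added after the regions of the members had been seen. A match of letters is a description of the sequence and not evidence of binding in these cells.

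Over the 4 comparisons together, most of these genes gained accessibility at the promoter, although only 7 of the 15 member regions covered a canonical TSS. A majority, 7 members, was reached only in VAL at 8 h, the longest list. In OCI-LY3 at 3 h and 8 h and in VAL at 3 h it was 2, 4 and 3 members. Of the 10 members, 7 had increased regions (40.4% of protein-coding genes had one in any comparison), 1 had a decreased region (18.2%), 2 had none (46.8%), and 0 had regions of both directions (5.32%). In each of the 7 genes with increased regions, one region covered the canonical TSS. No region of a member was listed in the opposite direction in any other list, as was the case for all but 0.736% of the distinct regions. In OCI-LY3 the genes with an increased region were HSF1 and HSP90AB1 at 3 h, joined by HSPA1B and DNAJB1 at 8 h. In VAL they were HSF1, HSPA1B and DNAJB1 at 3 h, joined at 8 h by HSPA1A, HSPH1, HSP90AA1 and HSP90AB1. Of the 14 increased regions, 8 were listed only at 8 h, against 65.9% of all distinct increased regions, and 10 only in VAL, against 64.5%. Both lines listed 4 of them, against 18.5%, and OCI-LY3 alone listed 0, against 17.0%.

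**Figure D1:**
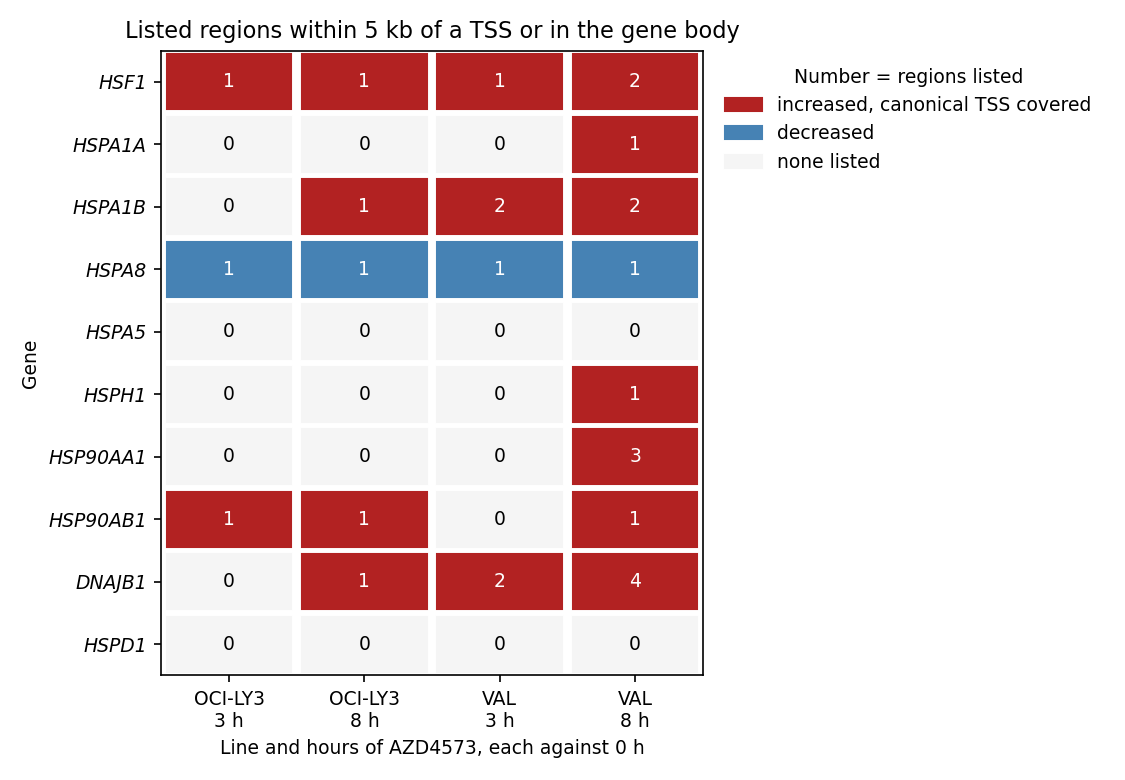
Number of listed regions at each of the 10 genes (rows) in each line and time against 0 h (columns), coloured by direction. HSF1 was increased and HSPA8 decreased in all 4 comparisons, 7 genes were increased in VAL at 8 h, and HSPA5 and HSPD1 had no listed region.

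These counts have to be read against lists of very different length. In OCI-LY3 at 3 h, 2 of the 10 members had an increased region, against 9.34% of 20176 protein-coding genes treated the same way. At 8 h in OCI-LY3 it was 4 members against 17.0% of genes. In VAL it was 3 members against 15.2% at 3 h and 7 members against 34.6% at 8 h. For regions that cover the canonical TSS the same members were counted, 2, 4, 3 and 7 in the same order, against 5.56%, 8.52%, 9.68% and 23.1% of 19894 genes. The share of members was higher than the share of all genes in each of these comparisons, with only 10 genes behind it. The share of all genes counts each of them, whether or not a region near it could be tested, which the lists do not show. HSPA8 was the 1 member with a decreased region in each comparison, against 4.66% and 7.40% of genes in OCI-LY3 and 4.23% and 13.1% in VAL at 3 and 8 h. No member had a decreased region over its canonical TSS, where 0.538%, 1.00%, 0.181% and 2.63% of genes had one. The stretch searched per gene had a median of 20417 bp for the members and 31822 bp for protein-coding genes, but it was long for the members with the most regions, at 63945 bp for HSP90AA1 (70.8 percentile) and 52694 bp for DNAJB1 (65.3 percentile).

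**Figure D2:**
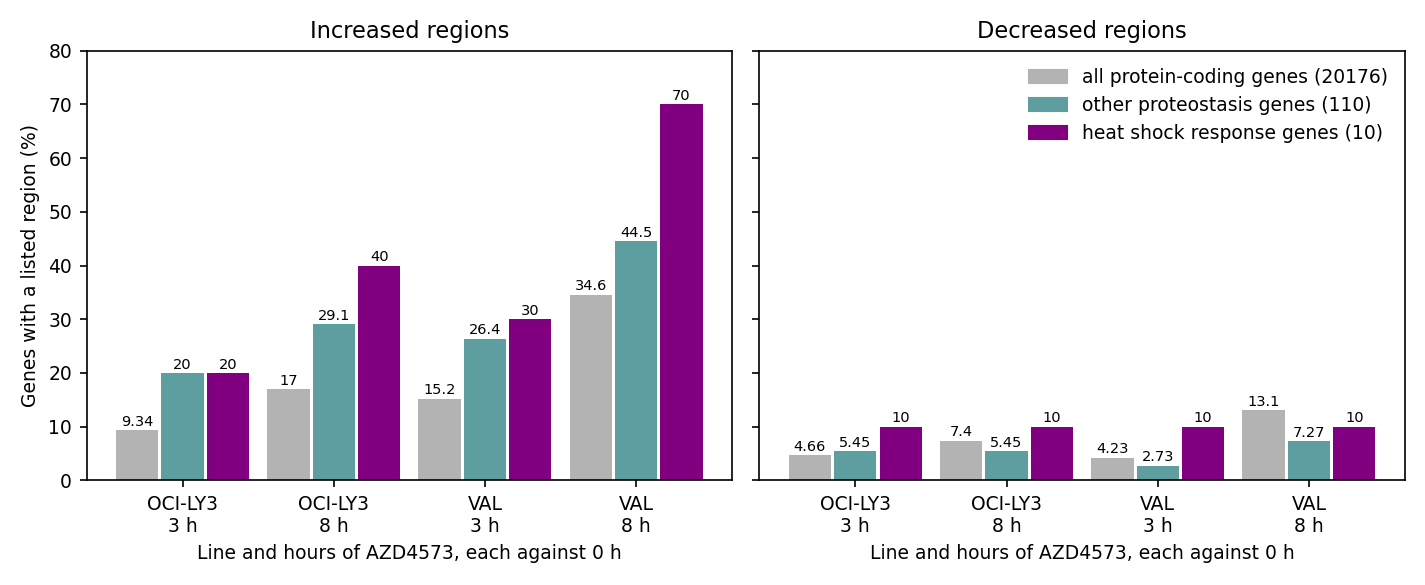
Share of genes (%) with an increased (left) or a decreased (right) region in each comparison, for all 20176 protein-coding genes, 110 other proteostasis genes and the 10 heat shock response genes. In the increased lists at 8 h the members stood at 40.0% and 70.0% against 17.0% and 34.6% of all genes, and their 10.0% in the decreased lists is HSPA8 alone.

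HSF1, the master regulator of the heat shock response, was the only member with an increased region in all 4 comparisons, as had 4.48% of protein-coding genes. The region, chr8:145514350-145516200, ran from -936 to +914 bp around the canonical TSS and covered exon 1, including its 5′ untranslated part and the first coding bases, and the start of intron 1. It also covered the TSS of BOP1, a ribosome biogenesis gene read in the other direction, and the promoters of both genes cannot be told apart here. Only 615 of all distinct increased regions (4.49%) were in all 4 increased lists. A second region, chr8:145536778-145537307, spanned exon 10 and the neighbouring introns, 21492 bp from the TSS, and was listed in VAL at 8 h. With a GC content of 66.9%, the promoter region was between the 83.6 and 93.1 percentile of the lists that hold it. On chromosome 8, increases were 52.1% of the listed regions in VAL at 3 h and 29.5% to 37.5% in the other comparisons.

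HSPA1A and HSPA1B are the stress-inducible HSP70 genes, neighbours on chromosome 6 with a single exon each and nearly the same protein. At HSPA1B the promoter region, chr6:31794394-31795929, ran from -1121 to +414 bp and was increased at both times in VAL and at 8 h in OCI-LY3. This HSPA1B region also covered the TSS of ENSG00000289829, a long noncoding RNA gene on the opposite strand. At HSPA1A the matching region, chr6:31782251-31783696, ran from -1069 to +376 bp and was increased only in the VAL 8 h list. It also covered the TSS of HSPA1L, a related HSP70 gene on the opposite strand. VAL also had, at 3 h and 8 h, an increased region 2340 bp past the end of HSPA1B, chr6:31800371-31800964, 594 bp wide. The sequences shown for both promoters differ little, with 94.3% identity over the 230 bases compared, and the capitals mark the same GAATATTC core at -106 to -99 in HSPA1A and at -105 to -98 in HSPA1B.

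Reads from the HSPA1A and HSPA1B genes cannot be fully told apart, and the part of this in the differing calls was not tested. The authors removed reads that aligned to more than one place. Of all stretches of 32 bases, 23.4% in HSPA1A and 26.5% in HSPA1B occurred once in the genome, and the pair shared 1818 of them. In the listed promoter regions, which reach further before the TSS than past it, the share was 83.7% and 85.2%, and in the part of either region from +250 bp on, 0% were unique. Within 1 kb of the TSS it was 59.0% for HSPA1A and 58.9% for HSPA1B, against 90.1% to 100% for the other 8 members. The libraries were made for paired-end sequencing and the read length was not used here, so how many reads this removed is unknown.

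HSPA8, the constitutive HSP70 of the cytosol, was the exception among the members, with a decreased region in every comparison and no increased one. The region, chr11:122924220-122926433, was 2214 bp wide. It started 1764 bp past the 3′ end of the gene and overlapped no annotated gene. Its distance to the nearest TSS of HSPA8 was 4661 bp, so it entered the set only just, through a transcript that starts inside the gene, and its edges were 6411 and 8624 bp from the canonical TSS. The other region near the 5 kb limit on the inside was the one past HSPA1B, at 4856 bp from its TSS. Of the regions outside the rule but within 5 kb past a 3′ end, the nearest to a TSS was one past HSPA1A, at 5992 bp. Only 163 of all distinct decreased regions (1.27%) were in all 4 decreased lists. A decreased region in all 4 comparisons was found for 0.872% of protein-coding genes, and one with no increased region in any comparison for 0.525%. It was among the widest of the decreased regions, between the 94.9 and 97.0 percentile of width in its lists, with a GC content of 45.0%. The HSPA8 promoter, with its pair of 3-unit elements, had no listed region, and the nearest increased region to the TSS was between 132592 and 3205221 bp away, depending on the list.

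HSPA5 encodes BiP, the HSP70 of the endoplasmic reticulum, which answers mainly to the unfolded protein response. It had no listed region in either direction, as had 46.8% of protein-coding genes. The nearest increased region was 194934 bp from its TSS, in VAL at 8 h, and the nearest decreased one was also 194934 bp away, in OCI-LY3 at 3 h. Its promoter lacked the searched heat shock elements.

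HSPH1, an HSP110 chaperone that exchanges nucleotide on HSP70, had 1 increased region, listed in VAL at 8 h alone. The region, chr13:31735029-31737084, ran from -1043 to +1012 bp, covered all 3 annotated TSSs of the gene and held the 3-unit element shown. On chromosome 13 increases were in the minority, between 16.2% and 44.6% of the listed regions, and 19.6% of its protein-coding genes had an increased region in VAL at 8 h.

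The HSP90 genes differed in when they appeared. HSP90AB1, the constitutive form, had a single region, chr6:44213648-44215806, from -1190 to +968 bp, which covered all 4 of its TSSs and was increased at both times in OCI-LY3 and at 8 h in VAL. This was the only member region listed in OCI-LY3 at 3 h and not in VAL at 3 h. The region held 2 elements of 3 units in the first intron, at +678 to +690 and +731 to +743, both shown in capitals. HSP90AA1, the stress-inducible form, had 3 increased regions, all of them in VAL at 8 h and none in OCI-LY3. One, chr14:102552695-102554846, covered the canonical TSS from -1465 to +686 bp and held the 3-unit element at -88 to -76. Another, chr14:102605346-102607027, covered the TSS of the long transcript, at -53646 to -51965 bp from the canonical one, together with the TSS of the neighbouring gene WDR20. The remaining one, chr14:102568582-102570223, lay between those starts, inside an intron of the long transcript, where 69.3% of 32-base stretches were unique.

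**Figure D3:**
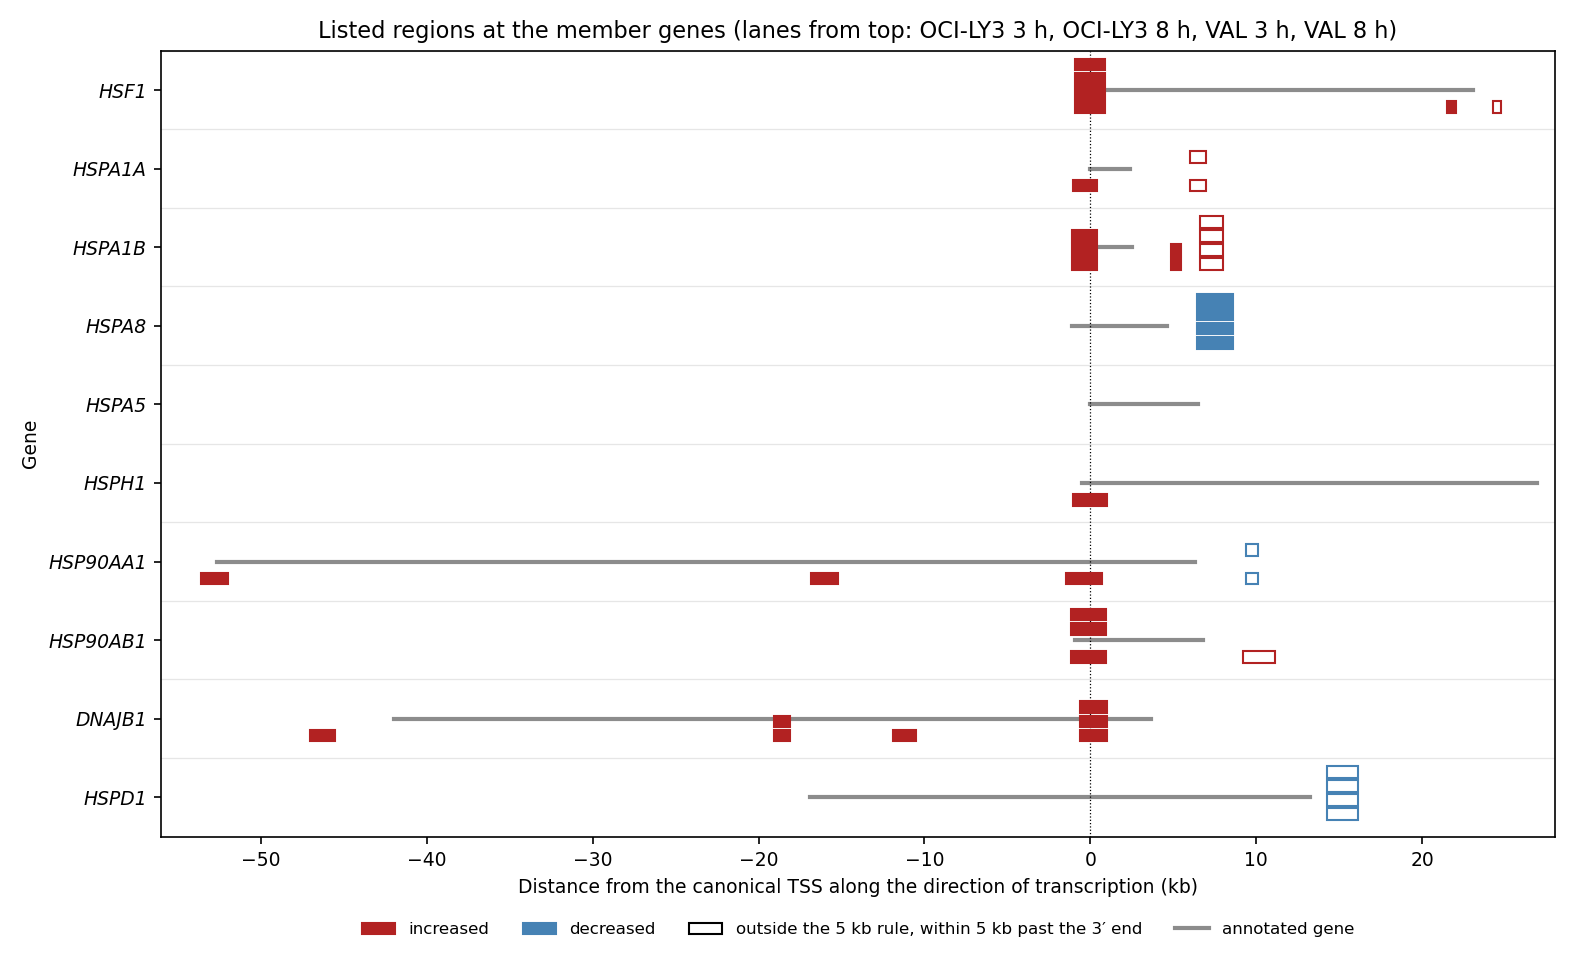
Position of every listed region at the 10 genes, as distance (kb) from the canonical TSS in the direction of transcription, with a lane for each line and time, filled boxes for regions within the 5 kb rule and open boxes for other regions within 5 kb past the 3′ end. Increased regions sat on the TSS of 7 genes and past the 3′ end of 4, and the decreased regions of HSPA8, HSPD1 and HSP90AA1 all lay past the 3′ end.

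DNAJB1, the J-domain protein that hands clients to HSP70, had the most regions, 4 in all, every one increased. The promoter region, chr19:14628217-14629815, ran from -606 to +992 bp, covered 5 of the 18 annotated TSSs and was listed at both times in VAL and at 8 h in OCI-LY3, the same lists as HSPA1B. The other 3 lay upstream of the canonical TSS and were listed in VAL alone. Of these, chr19:14639700-14641082 (VAL 8 h) covered 11 further DNAJB1 TSSs but also the TSSs of TECR, an enzyme of fatty acid elongation, and of MIR639, while chr19:14647287-14648286 (VAL 3 h and 8 h) and chr19:14674762-14676257 (VAL 8 h) covered none. Regions on chromosome 19 were nearly all increased, with 97.2% to 99.6% of those listed, and in VAL at 8 h an increased region was listed for 61.0% of its protein-coding genes. With chromosome 19 left out, a step added after the data were seen, 2, 3, 2 and 6 members had an increased region in OCI-LY3 at 3 h and 8 h and VAL at 3 h and 8 h, against 8.53%, 15.3%, 13.7% and 32.5% of genes.

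HSPD1 encodes HSP60, which folds proteins in mitochondria and shares its promoter region with the cochaperonin gene HSPE1. It had no listed region within the rule in any list, although its promoter holds a pair of overlapping 3-unit elements. The nearest increased region was at least 951503 bp from its TSS. The nearest decreased region was 14289 bp away in all 4 comparisons, and it lay just past the 3′ end of the gene.

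The position of the HSPA8 region led to a look at the 5 kb past the 3′ end of every gene, a window chosen after the values of the members had been seen. HSPD1 had a decreased region there, chr2:198348396-198350275, in all 4 comparisons. It ran from 1033 to 2912 bp past the 3′ end, was 1880 bp wide, overlapped no annotated gene and, at 13992 bp from the nearest HSPD1 TSS, fell outside the rule. HSP90AA1 had one in both lines at 8 h, chr14:102543251-102544001, from 3078 to 3828 bp past the 3′ end, which overlapped the 7SL pseudogene RN7SL472P. Thus HSP90AA1 was listed in VAL at 8 h with increases at both promoters and a decrease beyond the gene. In OCI-LY3, 2 members had a decreased region past the 3′ end at 3 h, against 1.98% of protein-coding genes, and 3 had one at 8 h, against 2.00%. In VAL it was 2 members against 1.29% at 3 h and 3 members against 2.51% at 8 h. HSPA8 and HSPD1 had one in all 4 comparisons, as had 0.496% of genes. Each of these 3 regions was over 1 kb from any TSS of a protein-coding gene.

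Increased regions past the 3′ end were listed at other members. They occurred at HSPA1B in all 4 comparisons, against 1.05% of genes, and the one common to all, chr6:31802124-31803529, covered the TSSs of SNHG32 and SNORD48, noncoding RNA genes. HSPA1A had one in OCI-LY3 and VAL at 8 h, 3589 bp past its end and over the TSS of another annotated gene. HSF1 and HSP90AB1 had one in VAL at 8 h, the latter over the TSS of SLC35B2. In OCI-LY3 this made 1 member at 3 h and 2 at 8 h, against 1.85% and 3.91% of genes, and in VAL 1 and 4 members, against 4.12% and 10.6%. Over all comparisons it was 4 members against 11.6% of genes, and for decreased regions 3 members against 4.48%.

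Past the 3′ ends of all protein-coding genes, regions of both directions were more frequent than inside the last part of the gene, and by midpoint a larger share of the decreased ones lay there than before the 5′ end. In OCI-LY3 at 3 h, 20.3% of decreased regions had their midpoint within 5 kb past a 3′ end and 4.35% within 5 kb before a 5′ end, whereas for increased regions the shares were 14.0% and 20.0%. In VAL at 3 h they were 12.1% and 2.58% for decreased and 17.2% and 20.4% for increased regions. By 8 h the share of decreased regions past a 3′ end was 9.76% in OCI-LY3 and 4.59% in VAL, against 3.35% and 3.11% before a 5′ end. For increased regions at 8 h it was 13.1% and 14.8%, against 15.4% and 17.1%, so that in 3 of the 4 comparisons a larger share of the increased than of the decreased regions lay past a 3′ end. Counted by gene and by any overlap, the order was the reverse for decreased regions in VAL at 8 h, with 507 genes (2.51%) past the 3′ end and 668 (3.31%) before the 5′ end. Counted in bins of 1000 bp, the number of genes with a decreased midpoint was highest between 1001 and 2000 bp past the 3′ end in all 4 comparisons, at 109 and 97 genes in OCI-LY3 and 70 and 110 in VAL. Inside the last 5 kb of genes no bin exceeded 41, 42, 29 and 58 genes, respectively. For increased midpoints the highest bin was 1 to 1000 bp past the 3′ end in VAL at 3 h, with 157 genes, and 1001 to 2000 bp past it in VAL at 8 h, with 402 genes, whereas in OCI-LY3 it lay over 5 kb from the 3′ end. Summed over bins, decreased midpoints numbered 154 gene counts in the last 5 kb of genes and 368 in the 5 kb past them in OCI-LY3 at 3 h, and 166 and 368 at 8 h. In VAL the decreased sums were 107 and 236 at 3 h and 253 and 457 at 8 h. Increased midpoints went from 247 to 299 and from 517 to 662 in OCI-LY3, and from 539 to 695 and from 1448 to 1850 in VAL, in the same order of times.

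**Figure D4:**
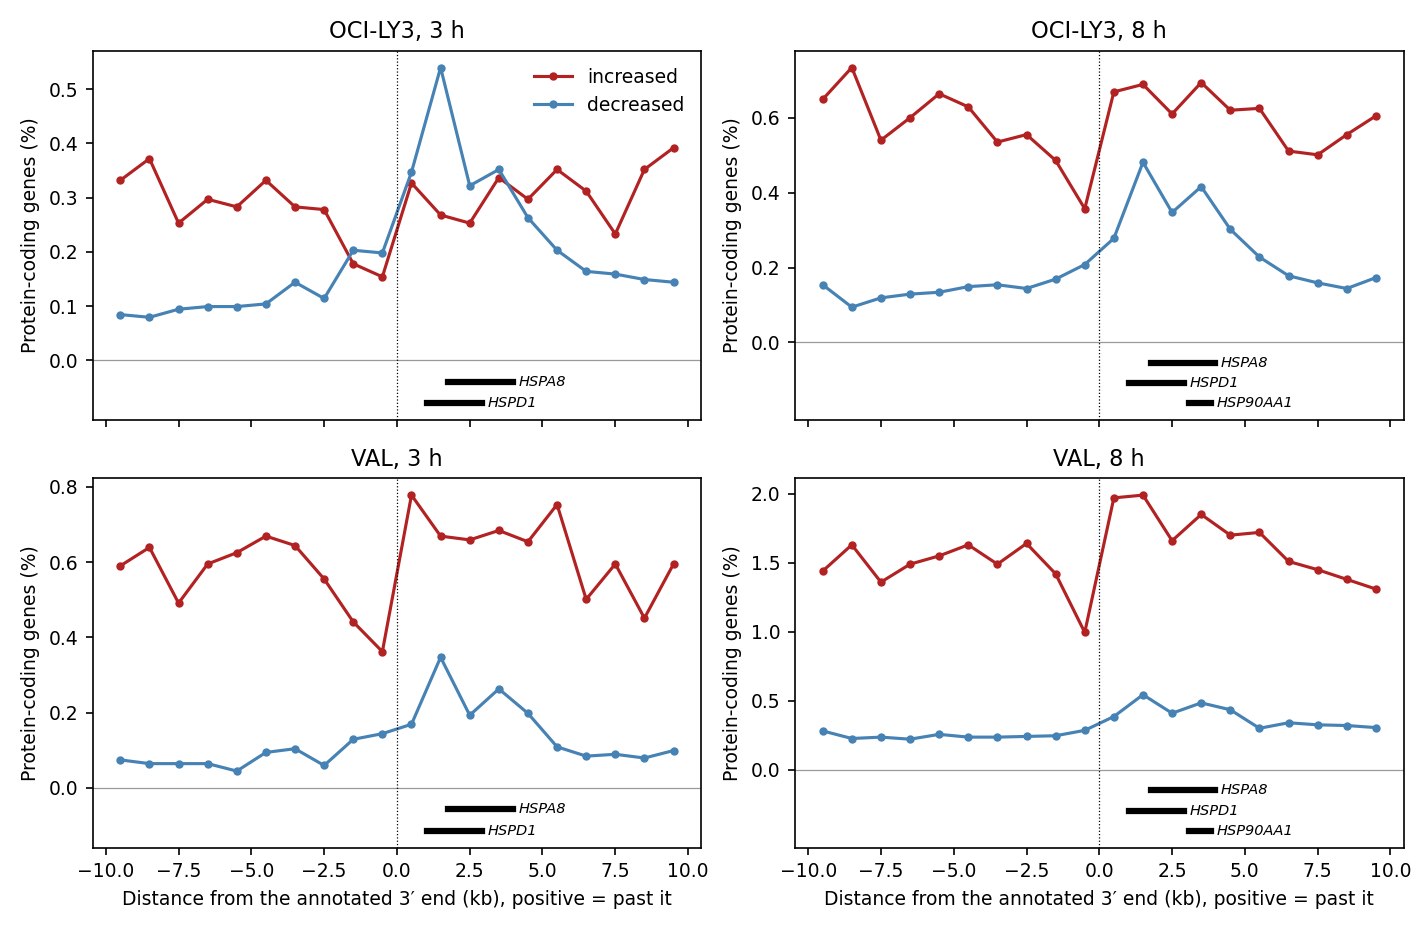
Share of protein-coding genes (%) with the midpoint of an increased or a decreased region in each 1-kb bin around the annotated 3′ end (kb, positive past it), one panel per comparison, with black bars for the decreased regions of HSPA8, HSPD1 and HSP90AA1. Decreased regions were most frequent between 1001 and 2000 bp past the 3′ end in each panel, increased regions also peaked just past the 3′ end in VAL, and the vertical scales differ between panels.

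Among 110 further genes of protein folding and stress, grouped in 10 lists of cochaperones, other chaperones and heat-inducible genes, 55 had increased regions only (against 35.1% of protein-coding genes), 8 decreased only (against 12.8%), 6 both (against 5.32%) and 41 none, which is 37.3% against 46.8%. In OCI-LY3, 20.0% of these genes had an increased region at 3 h and 29.1% at 8 h, and in VAL 26.4% and 44.5%, each above the shares of all protein-coding genes given earlier. Those shares count all protein-coding genes, whether or not a region near them could be tested, which the lists do not show. For decreased regions the shares were 5.45% and 5.45% in OCI-LY3 and 2.73% and 7.27% in VAL, above the 4.66% of all genes in OCI-LY3 at 3 h and below the 7.40%, 4.23% and 13.1% in the other comparisons. An increased region in all 4 comparisons was listed for 13 genes (11.8%, against 4.48% of all genes), and for 9 of them (8.18%, against 2.63%) the canonical TSS was covered each time. The latter were the HSP70 cofactors BAG5, BAG6 and STUB1, the HSP90 cochaperones CDC37 and PTGES3, the J-domain gene DNAJC7, the prefoldin subunit PFDN6 and the stress genes GADD45B and PPP1R15A. The other 4 were CALR, HSPB6, HSPBP1 and HYOU1. For CALR and HSPB6 the region common to all 4 comparisons covered the TSS of a neighbouring gene and not their own canonical TSS. Of the 13, CALR, CDC37, GADD45B, HSPB6, HSPBP1 and PPP1R15A are on chromosome 19, where nearly all listed regions were increased. With the 8 genes of that chromosome left out, 7 of 102 (6.86%) had an increased region in all 4 comparisons, against 3.78% of the remaining protein-coding genes, and the shares per comparison were 15.7%, 24.5%, 20.6% and 40.2% (OCI-LY3 3 h and 8 h, VAL 3 h and 8 h), against 8.53%, 15.3%, 13.7% and 32.5%. Of the 9, BAG5, BAG6, DNAJC7, PFDN6 and STUB1 share the region with the TSS of a neighbouring gene on the opposite strand. By list, an increased region in VAL at 8 h, which 34.6% of all genes had, was present in 5 of 8 mitochondrial chaperone genes, 6 of 10 HSP70 cofactors, 4 of 7 small heat shock protein genes, 5 of 9 ubiquitin and other heat-inducible genes, 6 of 11 HSP90 cochaperones and 9 of 18 genes of the endoplasmic reticulum. It was present in 6 of 17 J-domain genes, 3 of 9 heat shock factors and regulators, 2 of 8 other HSP70 genes and 3 of 13 genes of the chaperonin CCT and prefoldin. The order differed between comparisons. In OCI-LY3 at 3 h, where 9.34% of all genes had an increased region, it was 6 of 17 J-domain genes, 4 of 10 HSP70 cofactors, 4 of 18 genes of the endoplasmic reticulum and 3 of 11 HSP90 cochaperones, against 0 of 8 mitochondrial chaperone genes, 0 of 9 heat shock factors and regulators, 0 of 8 other HSP70 genes and 1 or 2 genes in each remaining list. Differences between these small lists were not tested.

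**Figure D5:**
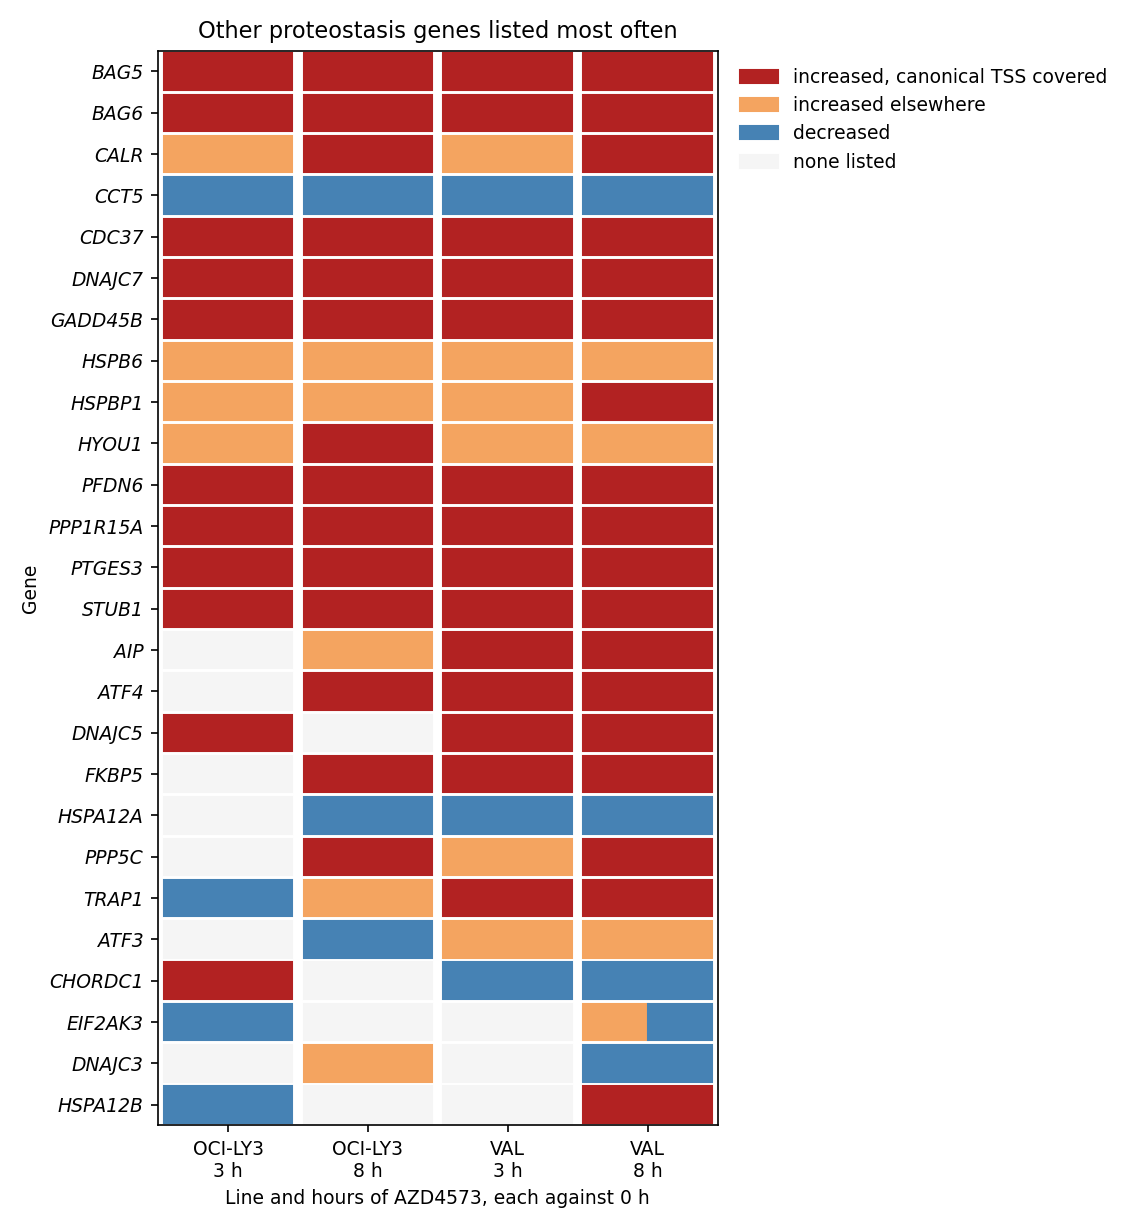
Direction of listed regions in each line and time against 0 h for the 26 proteostasis genes with regions of one direction in at least 3 comparisons or with regions of both directions. The upper rows are mostly increased throughout, CCT5 is decreased in all 4 columns, and a split tile marks a gene with both directions in one list.

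Some of these genes had decreased regions, alone or beside increased ones. HSPA12A, a distant HSP70 relative, had only decreased regions, at both times in VAL and at 8 h in OCI-LY3, all far upstream of its canonical TSS. The same region was increased in VAL and decreased in OCI-LY3 at ATF3, a stress-induced transcription factor (chr1:212768816-212770513, increased in VAL at 3 h and 8 h and decreased in OCI-LY3 at 8 h), and at EIF2AK3, the kinase PERK of the unfolded protein response (chr2:88968652-88969987, increased in VAL at 8 h and decreased in OCI-LY3 at 3 h). CHORDC1, an HSP90 cochaperone, had an increased promoter region in OCI-LY3 at 3 h and a decreased region 17150 bp downstream of its TSS in VAL at 3 h and 8 h. Among the members, HSPA8 had decreased regions alone, and none had an increased and a decreased region within the rule.

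Within 5 kb past the 3′ end, 5 of the 13 genes of the chaperonin CCT and prefoldin had a decreased region in any comparison, against 4.48% of all genes, a group picked out after these values were seen. CCT3, CCT4, CCT6A and the prefoldin genes had no decreased region there, and 2 of the 13, PFDN1 and PFDN6, had an increased one in VAL at 8 h. CCT5, a subunit of the cytosolic chaperonin CCT, had a decreased region in all 4 comparisons, chr5:10265988-10267351, across the 3′ end of the gene. The other 4 were TCP1, CCT2, CCT7 and CCT8. TCP1 and CCT2 had them in all 4 comparisons, starting 405 and 793 bp past the end, CCT7 in OCI-LY3 at both times and VAL at 3 h, starting 301 bp past the end, and CCT8 at 3 h in both lines, starting 1984 bp past the end. DNAJA1, a J-domain partner of HSPA8, had one in all 4 comparisons, starting 1237 bp past the end. Of the 110 genes, 5.45%, 4.55%, 5.45% and 4.55% had a decreased region in that window in OCI-LY3 at 3 h and 8 h and VAL at 3 h and 8 h, against the 1.98%, 2.00%, 1.29% and 2.51% of all genes. At 3 h the genes behind these shares were, in both lines, the 5 CCT genes and DNAJA1. An increased region in that window was listed for 0.909%, 7.27%, 7.27% and 19.1% of them, against 1.85%, 3.91%, 4.12% and 10.6% of all genes, so that in 3 of the 4 comparisons more of them had an increased than a decreased region past the 3′ end.

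The listed regions of the members were also searched for heat shock elements along their whole length. A 3-unit element was present in 3 of the 14 increased regions (those over the TSS of HSPH1, HSP90AA1 and HSP90AB1), against 1.68% of 13686 distinct increased regions and 1.92% of 12877 decreased ones in all lists. These 3 regions lay between the 91.9 and 94.0 percentile of width in their lists, and no count of matches was adjusted for width. A 2-unit element was present in 7 of the 14, namely the 7 regions over a canonical TSS, against 39.8% and 53.6%. GC content of the increased member regions ranged from 46.1% to 69.1%, lowest at the region past HSPA1B and highest at the DNAJB1 promoter, while the lists' medians were 53.5% to 58.2% for increased and 40.7% to 45.3% for decreased regions. The HSPA8 region, at 45.0%, was the lowest in GC of all 15.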

How the data were processed

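ATAC-seq libraries of OCI-LY3 and VAL were not analysed one by one, since the deposited files are 8 lists of regions (chromosome, start and end, a unit other than counts or signal). The authors used bowtie2 with hg19, discarded reads that were mitochondrial, duplicated or not uniquely aligned, called peaks per sample with MACS2, merged them with bedtools, counted reads and called changed regions with DESeq2. Versions, and which libraries of a group entered each test, are not given in the sources used here. The files hold 0 columns of per-sample values, so depth and precision are unknown. The labels disagree on cell input for Fast-ATAC. No listed region was wider than 3026 bp, and 4 of 26369 were over 3000 bp.

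Genes and TSSs came from GENCODE v44 lifted to GRCh37, in which 0 listed regions fell outside a chromosome. TSSs were those of basic transcripts, and an overlap of 1 bp counted. Shares over protein-coding genes stand beside each count in place of a test. All 10 members are named, and of the 10 lists of other genes (111 genes, 110 in the annotation, with 1 further gene not reported here) those with regions of one direction in at least 3 of 4 comparisons or in both directions, plus neighbours whose TSS a member region covers. The genes named for the window past the 3′ end alone (TCP1, CCT2, CCT7, CCT8, DNAJA1, CCT3, CCT4, CCT6A and PFDN1, and SNHG32, SNORD48, SLC35B2 and RN7SL472P as overlapped genes) and HSPE1, the neighbour of HSPD1, fall outside this rule and were chosen after their values were seen. Members and lists were chosen with earlier results of these data known. Assignment and motif searches were tested on simulated data. Python 3.11.15, numpy 2.4.6, pysam 0.24.0 and matplotlib 3.10.9 were used. Alternatives varied the reach, overlap, transcripts, assignment, background and motif.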

Additional observations from a re-analysis of the deposited data

How the results depend on the processing

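Of 86 alternative values, 66 stayed within 1.5 times the reported one and 20 did not. The counts of members with an increased region stayed within that range in all 4 comparisons under every alternative tried, and they were 3, 5, 4 and 7 with a reach of 10 kb. The decreased count rests on the HSPA8 region alone. It fell from 1 to 0 in all 4 comparisons with a reach of 1 kb or when most of a region had to lie inside, and rose to 2 at 10 kb at 8 h in OCI-LY3 and in VAL, by the HSP90AA1 region past the 3′ end. Counted over all annotated genes in place of protein-coding ones, the share of genes with an increased region was 4.35%, 8.11%, 7.29% and 17.7% (OCI-LY3 3 h and 8 h, VAL 3 h and 8 h), and with a decreased region 2.52%, 4.15%, 2.27% and 7.91%. Requiring 2 units in place of 3, 7 members in place of 4 had a heat shock element. Without chromosome 19, 7 in place of 13 other proteostasis genes had an increased region in all 4 comparisons. The windows past the 3′ end and the counts without chromosome 19 were chosen after seeing the data. With 2 kb or 10 kb in place of 5 kb, the counts of members with a decreased region past the 3′ end stayed within 1.5 times. The counts of members with an increased region there were not varied. No paired analysis was possible because the lists hold no values per library, and leaving out a replicate was not possible for the same reason. The lists give neither depth nor fold change, so a gene missing from them is not shown to be unchanged.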
